A study of Homo sapiens with 5 samples.

Results

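Keratins are the intermediate filament proteins of epithelial cells. This account follows 10 keratin genes in mixtures of RNA from 2 lung adenocarcinoma cell lines: the type I genes KRT18, KRT19, KRT15 and KRT17 and the type II genes KRT8, KRT7, KRT80, KRT81, KRT5 and KRT6A. They were chosen with earlier results of these data known, and their reads are the sum over the transcripts that GENCODE v44 assigns to each gene. They are 10 of the 61220 genes matched in the tables, and 8 of them were among the 13492 genes with enough reads to test (at least 10 reads in at least 2 libraries). NCI-H1975 and HCC827 are established human lines, each grown on its own in culture medium with serum to near confluency, with no drug or genetic change named in the labels. RNA of NCI-H1975 carried the synthetic spike-in set sequins mix A and RNA of HCC827 carried sequins mix B, and both RNAs were combined by mass in ratios from 100:0 (NCI-H1975 alone) through 75:25, 50:50 and 25:75 to 0:100 (HCC827 alone), which name the 5 libraries. Each ratio had 1 library, made from 1 ng of the mix by PCR-amplified nanopore cDNA sequencing, and all 5 drew on the same RNA preparation of each line. The p-values therefore compare 2 RNA preparations and carry no spread between cultures.

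Keratin filaments are built from heterodimers of 1 acidic type I and 1 basic type II keratin, and a keratin without a partner of the other type is generally degraded. KRT8 with KRT18 is the founding pair of simple, single-layered epithelia, and KRT7 with KRT19 is typical of ducts, airways and glands, so all of them are used as markers of adenocarcinoma. KRT5 is the type II keratin of basal cells of layered epithelia, where KRT15 is a type I keratin, and KRT6A with KRT17 belongs to injured, proliferating or squamous epithelium. KRT81 is known best as a hair keratin, and KRT80 is a type II keratin expressed in many epithelia. Type II genes lie together on chromosome 12 and type I genes on chromosome 17, except KRT18, which sits beside KRT8 on chromosome 12.

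The relatedness of the family and the unusual layout of KRT8 bear on how reads are divided, so the sequences are shown first. All coordinates and bases are from GRCh38 with GENCODE v44. Coding sequences of the 10 genes shared 61.2 to 83.1% of aligned bases within a type (median 67.0% over 21 pairs) and 54.6 to 63.9% between types (median 57.3% over 24 pairs).

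The first exons of KRT8 distinguish its transcripts. The 30 bases around the first splice junction of its 2 leading transcripts are given on the KRT8 strand, with the end of exon 1 in lower case and the start of exon 2 in capitals.
KRT8-216: cctcactctgtccagGATCTCCGCCTGGTT
KRT8-201: tccaacctcccacagGCCATTCCTGAGAGC
Exon 1 of KRT8-216 lies at chr12:52949456-52949842 on the minus strand, and 135 of its bases are opposite coding bases of exon 1 of KRT18-201 on the plus strand (chr12:52949118-52949590). The first 60 bases of that stretch, on the KRT18 strand, begin with the reverse complement of the lower-case end of the KRT8-216 exon.
KRT18: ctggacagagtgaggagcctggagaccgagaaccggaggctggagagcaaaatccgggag

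The libraries held 2932250 to 4058751 assigned reads, and the 10 keratins took from 0.602% of them in 100:0 to 1.36% in 0:100. Several features of the libraries moved with the ratio. From 100:0 to 0:100 the mitochondrial share of reads went from 5.64% to 8.85% and the read-weighted mean transcript length from 2581 to 2180 bases, and the part of both in the keratin results was not tested. Of 5 epithelial marker genes, 5 had at least 10 reads in both unmixed libraries. Of 4 lung adenocarcinoma markers 2 did: NKX2-1 and KRT7, which is itself one of the 10 keratins. The aspartic protease NAPSA had 7 reads in 100:0 and 690 in 0:100, and SFTPB had 1 and 14. The 6 fibroblast markers summed to 189 CPM (reads scaled to a fixed library size) in 100:0 and 7.55 in 0:100, nearly all from the collagens COL1A1 (532 and 19 reads) and COL1A2 (96 and 0 reads), while DCN was at 0 reads in every library. Endothelial markers summed to 2.69 CPM in 100:0 and 3.02 CPM in 0:100 and leukocyte markers to at most 4.47 CPM, with PTPRC, LYZ and CD3E at 0 reads throughout.

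The simple-epithelial keratins were all higher in HCC827 RNA. Levels are CPM scaled by TMM, a method that sets the bulk of genes level across libraries. A slope is the log2 change in CPM from pure NCI-H1975 to pure HCC827 RNA along a straight line fitted to all 5 libraries. Slopes were tested with edgeR's quasi-likelihood test and Benjamini-Hochberg adjustment over all 13492 genes. A mixture is linear in CPM and so curved in log2. For large changes the slope can therefore differ from the log2 ratio of the unmixed libraries and shift when 1 library is left out. KRT8 (ENSG00000170421.13, chr12:52897187-52949954, minus strand) had 2593, 4349, 4973, 4910 and 5569 reads from 100:0 to 0:100, or 775, 1022, 1295, 1742 and 2101 CPM. KRT18 (ENSG00000111057.11, chr12:52948871-52952906, plus strand), its type I partner, had 3121, 7285, 8889, 9792 and 11416 reads, or 933, 1713, 2315, 3473 and 4307 CPM. Both rose at every step of the series, and KRT18 by more: its slope was 2.17 ± 0.14 (SE; edgeR quasi-likelihood adjusted p = 2.0e-06), against 1.46 ± 0.10 for KRT8 (edgeR quasi-likelihood adjusted p = 2.0e-06). Between the unmixed libraries KRT18 was 4.62-fold higher in HCC827 (95% counting interval 4.44 to 4.80) and KRT8 2.71-fold higher (2.59 to 2.84). Reads carried no molecular identifiers, so this and every other interval covers counting error only.

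KRT7 and KRT19, the other abundant pair, also rose. KRT7 (ENSG00000135480.17, chr12:52232520-52252186, plus strand), the type II member, had 7125, 11022, 12266, 12794 and 12918 reads, or 2130, 2591, 3194, 4538 and 4874 CPM. KRT19 (ENSG00000171345.13, chr17:41523617-41528308, minus strand), a type I keratin without the usual tail domain, had 4492, 8805, 9521, 9245 and 11186 reads, or 1343, 2070, 2479, 3279 and 4220 CPM. Both were in order across the 5 libraries, and the steps were uneven: KRT7 gained most between 50:50 and 25:75, KRT19 between 25:75 and 0:100. The slope was 1.28 ± 0.10 for KRT7 (edgeR quasi-likelihood adjusted p = 3.7e-06) and 1.58 ± 0.11 for KRT19 (edgeR quasi-likelihood adjusted p = 2.0e-06). HCC827 RNA held 2.29-fold more KRT7 (2.22 to 2.36) and 3.14-fold more KRT19 (3.04 to 3.25). In bulk RNA, fewer cells with a transcript and less of it per cell cannot be told apart.

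**Figure D1:**
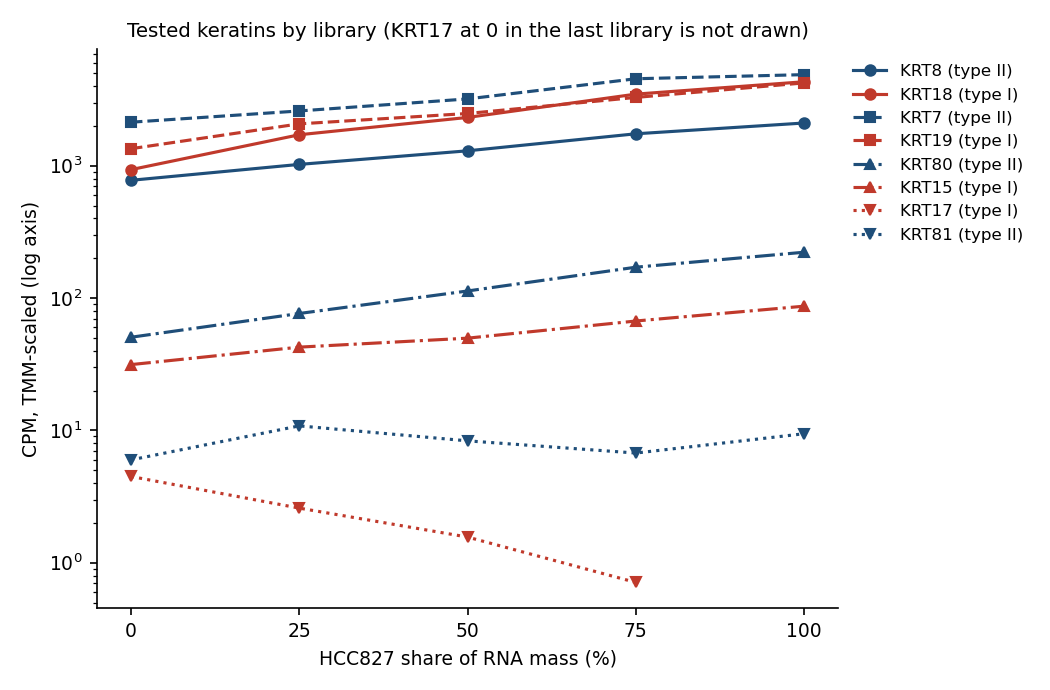
CPM (TMM-scaled, log axis) of the 8 tested keratins against the HCC827 share of RNA mass, 1 point per library, with type I genes in red and type II in blue. KRT7, KRT19, KRT18 and KRT8 lie between 775 and 4874 CPM and climb to the right, while KRT17 declines from 4.48 CPM to 0 reads.

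KRT80 and KRT15 rose at levels far below those pairs. KRT80 (ENSG00000167767.14, chr12:52168996-52192014, minus strand) had 169, 325, 434, 482 and 588 reads, or 50.5, 76.4, 113, 171 and 222 CPM. KRT15 (ENSG00000171346.16, chr17:41513745-41522529, minus strand) had 105, 181, 191, 189 and 230 reads, or 31.4, 42.5, 49.7, 67.0 and 86.8 CPM. Each was in order across the ratios. KRT80 had a slope of 2.16 ± 0.13 (edgeR quasi-likelihood adjusted p = 1.4e-06), as steep as KRT18 within the SE, and was 4.39-fold higher in HCC827 (3.69 to 5.24). KRT15 had a slope of 1.43 ± 0.16 (edgeR quasi-likelihood adjusted p = 1.9e-05) and was 2.76-fold higher (2.19 to 3.52).

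KRT17 went the other way. KRT17 (ENSG00000128422.18, chr17:41619442-41624842, minus strand) had 15, 11, 6, 2 and 0 reads, or 4.48, 2.59, 1.56, 0.709 and 0 CPM, and so fell at each step to no read in 0:100. Its fitted slope was -3.85 ± 0.95 (edgeR quasi-likelihood adjusted p = 0.0052), a value that depends on how the 0 is handled. Against the 3 reads that a count of 0 allows, it was at least 3.96-fold lower in HCC827, and with the error of the 15 reads counted, the 95% interval of the ratio of 0:100 to 100:0 reached 0.352. With 10 reads as the floor the ratio was 0.841. The gene passed the read filter only through 100:0 and 75:25, and without either of those libraries it could not be tested. KRT81 (ENSG00000205426.11, chr12:52285913-52291534, minus strand) had 20, 46, 32, 19 and 25 reads, or 5.98, 10.8, 8.33, 6.74 and 9.43 CPM, with no order across the ratios. Its slope of 0.17 ± 0.45 did not pass (edgeR quasi-likelihood adjusted p = 0.781), and the ratio of 0:100 to 100:0 was 1.58 with an interval of 0.84 to 3.0. The slope of KRT81 was -0.24 under library totals, -0.42 without 100:0 and -0.015 without 0:100, so its direction depends on the setting.

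KRT5 and KRT6A were at the limit of detection. KRT5 (ENSG00000186081.12, chr12:52514575-52520530, minus strand), the keratin of basal cells, had 1 read in 100:0 and 0 in the others. KRT6A (ENSG00000205420.11, chr12:52487176-52493257, minus strand), the stress-associated partner of KRT17, had 1 read in 25:75 and 0 in the others. Neither was tested. A count of 0 allows up to 0.897 CPM in 100:0 and 1.13 CPM in 0:100.

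Of the 10 keratins 6 rose, 1 fell, 1 did not pass and 2 were not tested. The 1 that fell was KRT17, which entered the test only through the libraries where it was highest. A gene this low that enters in that way can be called only as falling. Over all 13492 genes, 45.7% passed, 23.5% rising and 22.3% falling. CPM was in order over the 5 libraries for 7 keratins and for 28.5% of all tested genes. The median slope of the 8 tested keratins was 1.45, against -0.035 for all tested genes. Scaling by library totals lowered the median of all genes to -0.45. The 6 rises passed under that scaling too, and the folds between unmixed libraries became 2.03 for KRT8, 3.45 for KRT18, 1.71 for KRT7, 2.35 for KRT19, 3.28 for KRT80 and 2.07 for KRT15.

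Slopes also moved with transcript length. With all tested genes cut into 10 bins of equal size by read-weighted transcript length, the median slope was 0.40 in the bin of shortest transcripts and -0.36 in the bin of longest. Less the median of their own length bin, a comparison added after seeing the data, the slopes were 1.96 for KRT18, 1.34 for KRT8, 1.08 for KRT7, 1.38 for KRT19, 2.30 for KRT80, 1.39 for KRT15 and -4.06 for KRT17.

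Levels of different genes were compared as CPM per kilobase of each gene's main coding transcript. In 100:0 KRT7 stood highest at 1311 CPM per kilobase (1280 to 1342), followed by KRT19 at 966 (938 to 995), KRT18 at 660 (637 to 684) and KRT8 at 365 (351 to 379), with no overlap between neighbours. In 0:100 the first 3 were level within counting error, with KRT18 at 3048 (2993 to 3105), KRT19 at 3036 (2980 to 3093) and KRT7 at 2999 (2948 to 3052) CPM per kilobase. KRT8 remained below them at 988 (963 to 1015), or 1178 when divided by the length of KRT8-218, its reference transcript. KRT80 and KRT15 reached 57.0 (52.5 to 61.8) and 50.7 (44.4 to 57.7) in 0:100 and did not separate from each other.

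This ranking depends on the length used for KRT7, since many of its reads were assigned to short transcripts. When each transcript's reads were divided by its own length, KRT19 made up 26.9% of KRT7 plus KRT19 in 100:0 and 34.0% in 0:100, so that KRT7 stood above KRT19 in both. Nanopore cDNA reads can span a whole transcript, and whether a scale per kilobase fits such reads was not tested.

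The KRT8 and KRT18 pair shifted toward its type I partner. KRT18 made up 54.6% (95% Wilson interval 53.3 to 55.9), 62.6%, 64.1%, 66.6% and 67.2% (66.5 to 67.9) of KRT8 plus KRT18 reads from 100:0 to 0:100. The share rose by 11.7 percentage points along the fitted line (exact two-sided permutation test over 120 orders, p = 0.0167, adjusted p = 0.025 over 6 such tests). The smallest p that 5 libraries allow is 0.0167, and any series in order reaches it. Mixing alone puts a share or a sum in order once the unmixed RNAs differ in it. The p therefore shows only that the libraries were in order. The shift itself rests on the intervals of the unmixed libraries, which cover counting error and did not overlap. Most of the change lay between 100:0 and 75:25. HCC827 RNA held more of both genes, so mixing alone makes this share move fastest near 100:0. Whether the steps differ from that course was not tested. Without 100:0 the fitted change was 6.50 points, and the remaining 4 libraries allow no p below 0.0833. Without 25:75 it was 11.3 points (exact permutation p = 0.125, where 0.0417 was the smallest possible). The remaining libraries were still in order there. They are unevenly spaced in mass, so another order can give a steeper slope and a series in order need not reach the smallest p. This p therefore does not show that the trend was lost.

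KRT19 made up 38.7% (37.8 to 39.6), 44.4%, 43.7%, 41.9% and 46.4% (45.8 to 47.0) of KRT7 plus KRT19 reads. The unmixed libraries stood at the low and high end, and their intervals, which cover counting error, did not overlap. The mixtures were not in order, and the fitted change of 5.21 points did not pass (exact two-sided permutation test, p = 0.2, adjusted p = 0.2). As for KRT18, a difference between the unmixed RNAs rests on those intervals and not on the permutation p. The fitted change was 1.70 points without 100:0. In CPM per kilobase, the ratio of KRT18 to KRT8 went from 1.81 to 3.08 and that of KRT19 to KRT7 from 0.737 to 1.01.

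Over all 10 keratins, type I genes held 43.8% (43.1 to 44.6), 50.8%, 51.2%, 51.4% and 54.5% (54.0 to 54.9) of the reads. Type II reads were thus the majority only in 100:0. This share too is not linear in mass, since HCC827 RNA held more of the summed keratins. The fitted rise was 8.70 points (exact two-sided permutation test, p = 0.0167, adjusted p = 0.025), and 4.38 points without 100:0. Here too the p of 0.0167 shows only that the libraries were in order, which mixing alone brings about. Without 25:75 the fitted rise was 9.36 points (exact permutation p = 0.125, where 0.0417 was the smallest possible). The remaining libraries were in order there too, and the uneven spacing in mass again keeps this p from showing a lost trend. On a scale that divides each transcript's reads by its own length, the type I share was lower, at 35.1% in 100:0 and 46.7% in 0:100. Summed CPM of the 10 keratins was 5274, 7528, 9456, 13278 and 15821 (exact two-sided permutation test, p = 0.0167, adjusted p = 0.025), where the p again shows only the order of the libraries.

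**Figure D2:**
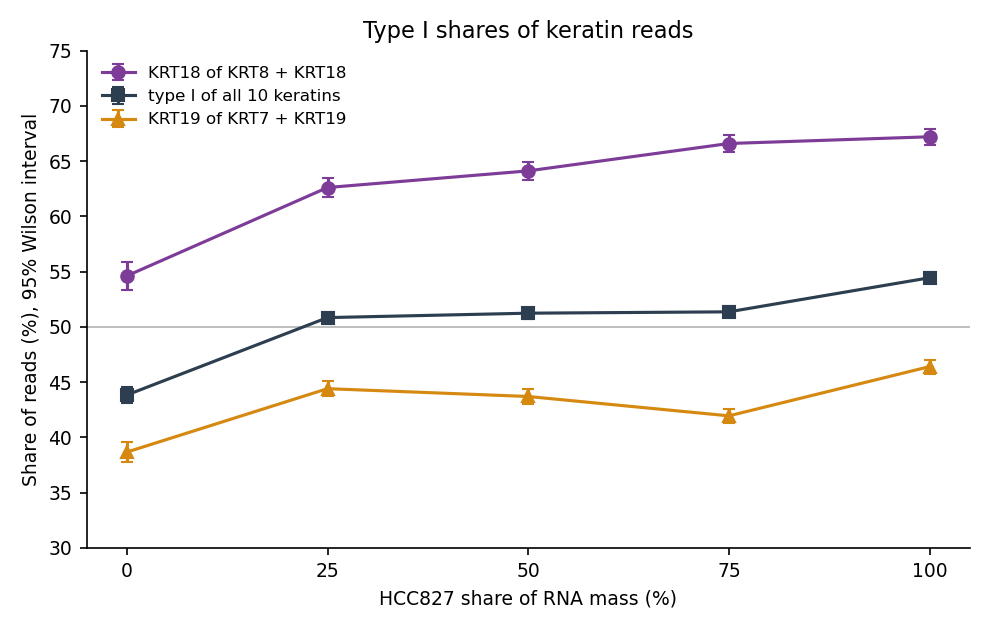
Share of reads (%) held by KRT18 within KRT8 plus KRT18, by type I genes within the 10 keratins, and by KRT19 within KRT7 plus KRT19, against the HCC827 share of RNA mass. Points are single libraries and bars are 95% Wilson intervals; KRT18 climbs from 54.6% to 67.2%, while KRT19 is not in order between 38.7% and 46.4%.

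The basal and stress-associated keratins stayed a small part of the pool. KRT5, KRT6A, KRT15 and KRT17 together held 0.686% (0.574 to 0.819), 0.600%, 0.543%, 0.513% and 0.549% (0.482 to 0.624) of keratin reads, nearly all of it KRT15. The intervals of the unmixed libraries overlapped and the fitted change of -0.145 points did not pass (exact two-sided permutation test, p = 0.0667, adjusted p = 0.08). Its size was -0.073 points without 100:0 and -0.230 without 0:100.

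KRT8 was the most complex gene at transcript level. The tables held 17 KRT8 transcripts, all with reads, and 81 of the 82 GENCODE v44 transcripts of the 10 genes were matched, all 81 with the same length as in v44. The transcript not matched was KRT8-218, the reference (MANE Select) transcript of KRT8, so reads of its structure could be assigned only to other transcripts. KRT8-216, which shares 1735 of its 2126 bases with KRT8-218 and adds the distant first exon shown above, held 86.0%, 86.4%, 87.2%, 87.5% and 88.1% of KRT8 reads. KRT8-201, with a first exon close to the rest of the gene, held 8.99% to 10.0%. Both rose with the gene, with slopes of 1.44 ± 0.11 and 1.42 ± 0.16 (edgeR quasi-likelihood adjusted p = 8.7e-08 and 1.8e-06). Since reads of the KRT8-218 structure could be assigned only elsewhere, the KRT8-216 share does not measure how often the distant first exon was used.

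**Figure D3:**
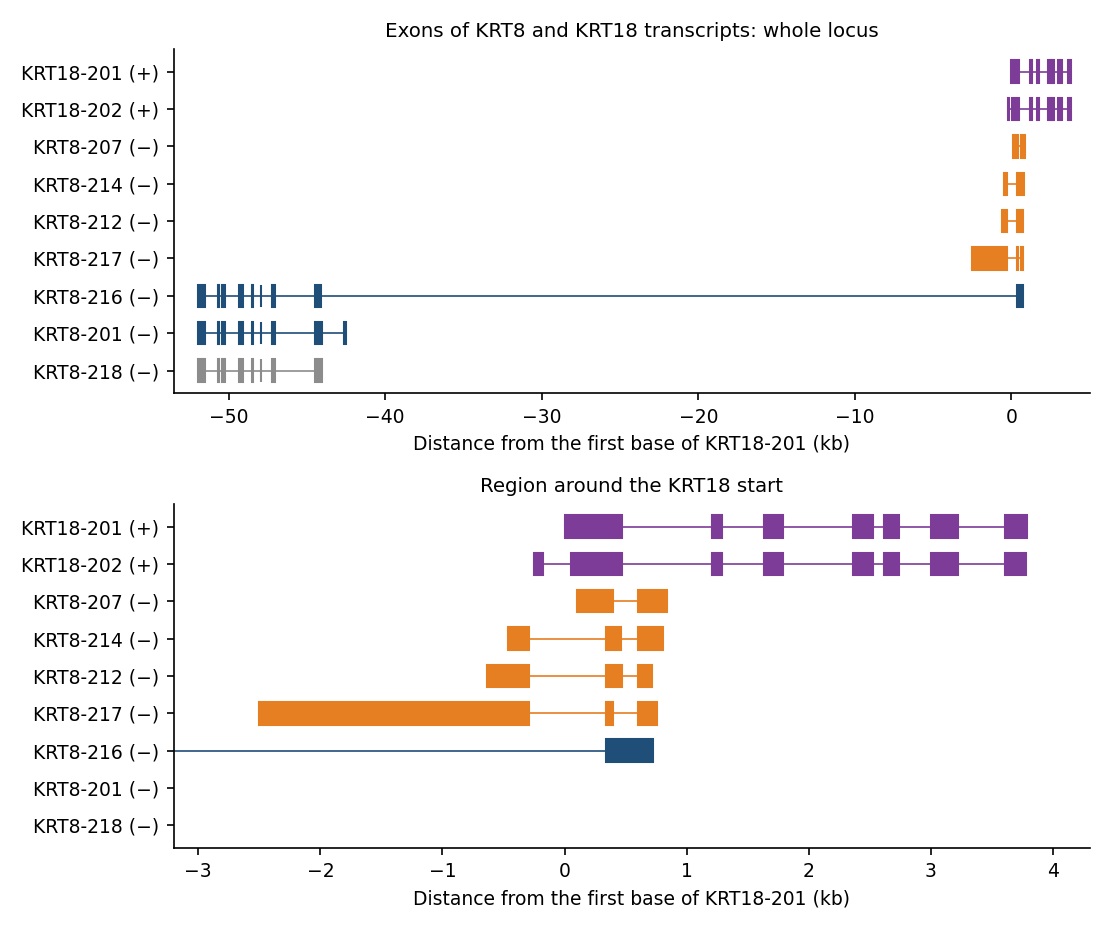
Exons (boxes) of selected KRT8 and KRT18 transcripts by distance in kilobases from the first base of KRT18-201, whole locus above and the region around the KRT18 start below; strand is given after each name. KRT8-216 joins the KRT8 body to an exon inside KRT18, the 4 orange transcripts lie wholly at that end, and KRT8-218 (grey) had no matched row.

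For 4 KRT8 transcripts no rise was detected. KRT8-217, KRT8-212, KRT8-214 and KRT8-207 share no base with KRT8-218 and lie at the far 5′ end of the gene, opposite the start of KRT18. Together they had 90, 104, 102, 66 and 77 reads, or 26.9, 24.4, 26.6, 23.4 and 29.1 CPM. The libraries were in no order, with a ratio of 0:100 to 100:0 of 1.08 (0.79 to 1.48), while the other 13 KRT8 transcripts went from 748 to 2072 CPM, a ratio of 2.77 (2.64 to 2.90). Their part of KRT8 reads was 3.47% in 100:0 and 1.38% in 0:100. KRT18 on the opposite strand rose 4.62-fold over the same libraries. Whether counting used strand is not given in the sources used here, and without strand, reads that lie within the shared bases cannot be told apart from KRT18. Those shared bases are 132 of the 2437 of KRT8-217, the transcript with most of the reads, 157 of 592 in KRT8-212, 239 of 507 in KRT8-214 and 452 of 542 in KRT8-207.

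Isoform usage was tested with edgeR's diffSpliceDGE, which compares each transcript's slope with that of its gene. Of 7455 genes 30 passed (0.402%), and of 6 keratin genes tested 2 did. KRT8 passed (diffSpliceDGE Simes adjusted p = 0.0084) through KRT8-217, whose slope lay 1.03 below that of the gene on the log2 scale. With the 4 transcripts left out, an alternative added after seeing the data, the test for KRT8 gave p = 0.964 and adjusted p = 1, and the rise of the KRT8-216 share went from 2.17 points (exact two-sided permutation test, p = 0.0167, adjusted p = 0.025) to 0.32 points (exact permutation p = 0.533). For the KRT8-216 share too, the permutation p of 0.0167 shows only that the libraries were in order. KRT7 passed (diffSpliceDGE Simes adjusted p = 0.032) through KRT7-204, a short transcript with 41, 46, 45, 20 and 29 reads that made up 0.575% of the gene in 100:0 and 0.224% in 0:100. Neither call was stable. The diffSpliceDGE call for KRT7 was lost without any 1 of the 5 libraries (adjusted p of 0.0506 to 1.00), and that for KRT8 without 100:0, 25:75 or 0:100 (adjusted p = 1.00, 0.0772 and 0.242).

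**Figure D4:**
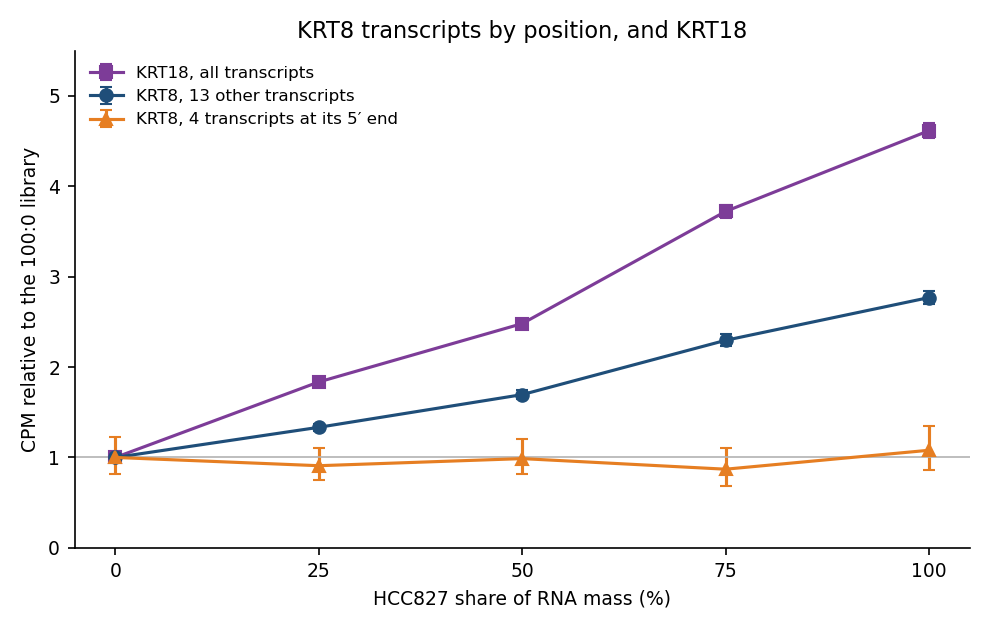
CPM relative to the 100:0 library of KRT18, of 13 KRT8 transcripts and of the 4 KRT8 transcripts at the 5′ end, against the HCC827 share of RNA mass. Bars are 95% counting intervals of each library's reads; the 4 transcripts stay near 1 while the other KRT8 transcripts reach 2.77 and KRT18 reaches 4.62.

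The leading transcripts of the other genes kept similar shares. KRT7 was divided among KRT7-201, the full coding transcript (46.2% in 100:0 and 48.5% in 0:100), the retained-intron transcript KRT7-208 of 629 bases (27.7% and 26.4%) and KRT7-209 of 499 bases (24.1% and 23.1%). KRT18-201 held 87.4% and 86.0%, and KRT18-202, which starts upstream, held 11.9% and 13.6%. KRT19-201 held 99.6% and 99.5%. KRT80-201 and KRT80-202, which differ by few bases, held 43.2% and 49.1% in 100:0 and 49.8% and 46.6% in 0:100, and KRT80-203 held 7.69% and 3.57%. KRT15-201 held 34.3% and 42.6%, and KRT15-202 38.1% and 33.5%. Of the 30 keratin transcripts tested 18 rose, 1 fell (KRT17-201) and 11 did not pass, against 33.6% of 31758 transcripts that passed in either direction (17.5% rising and 16.1% falling). The 18 all belong to genes that rose as a whole, so they are not separate observations. KRT17-201, like its gene, was tested only through the libraries where it was highest.

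For a linear mixture, the level in a mixed library lies between the unmixed libraries in proportion to mass. For the 6 keratins with at least 200 reads in all and a 2-fold difference between the unmixed libraries, the position was 15.1 to 25.3% in 75:25, 33.1 to 41.0% in 50:50 and 64.4 to 87.8% in 25:75. All 6 lay below 50% in the 50:50 library, from 33.1 ± 8.2% (counting SE) for KRT15 to 41.0 ± 0.92% for KRT18. The 6 genes share the scaling of each library, and positions over all genes were not computed. A keratin trait and a shift of the whole 50:50 library therefore cannot be told apart. KRT7 and KRT19 parted in 25:75, at 87.8 ± 2.0% and 67.3 ± 1.5%. Under library totals KRT18 moved to 27.9%, 46.8% and 80.7% and KRT7 in 25:75 to 99.1%, so the distance from the mass share depends on the scaling.

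**Figure D5:**
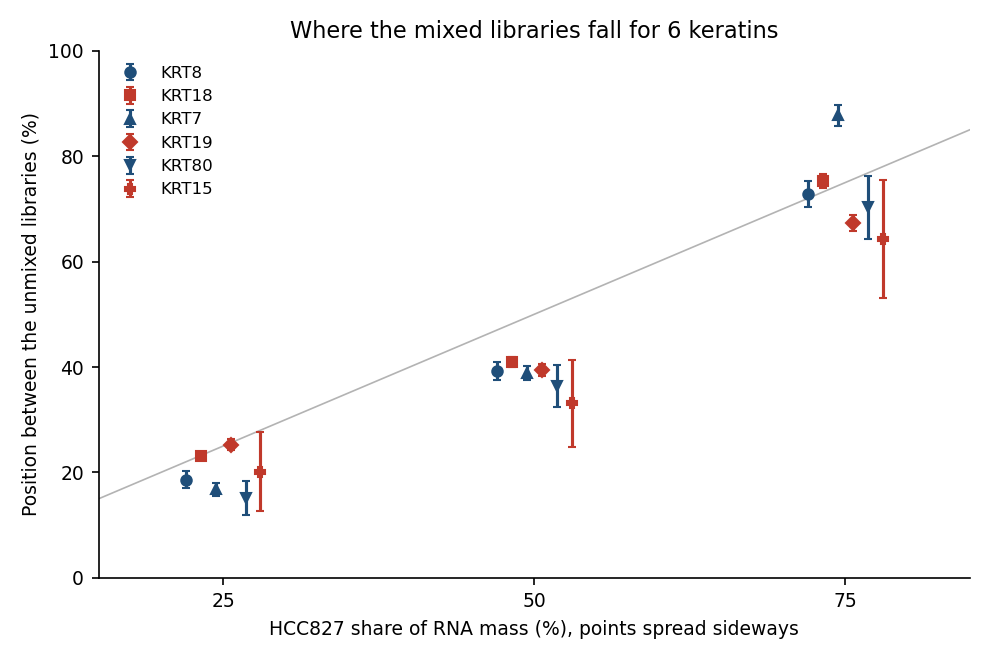
Position of each mixed library between the unmixed libraries (0% is 100:0 and 100% is 0:100) for 6 keratins, against the HCC827 share of RNA mass, with counting SE as bars and the line of equality in grey. Type I genes are red and type II genes blue; all 6 points at 50% mass lie below the line, between 33.1% and 41.0%.

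Copies of the keratin genes took few reads. The 51 KRT8 pseudogenes had 42 reads in all (0.188% of the parent's), of which KRT8P12 had 25, KRT8P14 7 and KRT8P45 3. The 67 KRT18 pseudogenes had 24 reads (0.0593%), of which KRT18P59 had 6, KRT18P67 4 and KRT18P5 3. None of the 5 KRT19 or 8 KRT17 pseudogenes had a read, and adding pseudogene reads to the parents changed no call. KRT81 shares 93.6% of aligned coding bases with KRT86, and KRT6A shares 97.5% with KRT6B and 97.9% with KRT6C, so the few reads of KRT81 and KRT6A may be divided among copies and are uncertain. KRT86, whose span overlaps KRT81 on the other strand and KRT7 on the same strand, had 163 reads. Exons of KRT81 and KRT7 transcripts share 0 bases with KRT86 exons.

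Among 45 other keratin genes 32 had no read and 4 could be tested. Of those 2 rose and 0 fell by edgeR's quasi-likelihood test, where 45.7% of all genes passed and 23.5% rose. Both risers had 0 reads in 100:0 and entered the test only through libraries with HCC827 RNA. Genes that enter in that way can hardly be called as falling. With 10 reads required in every library, 2 other keratin genes were tested, of which 0 rose and 0 fell. KRT4, a type II keratin of mucosal layered epithelia, had 0, 66, 131, 154 and 180 reads and was at least 75.7-fold higher in 0:100 than the 3 reads that 0 allows in 100:0. Its slope of 3.71 ± 0.60 had an edgeR quasi-likelihood adjusted p of 3.1e-04. The other riser, KRT20, a type I keratin of intestinal epithelium named after its values were seen, had 0, 20, 12, 14 and 28 reads and a slope of 2.75, which was 4.70 without 75:25 and did not pass without 100:0 (1.74) or without 0:100 (2.44). The edgeR quasi-likelihood adjusted p was 0.062 and 0.194 in those last fits, and DESeq2 gave an adjusted p of 0.149.

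Of 10 tested genes for other intermediate filaments 1 rose and 4 fell, with a median slope of -0.72, where 45.7% of all genes passed (22.3% falling). VIM, encoding the mesenchymal filament protein vimentin, had 3828, 3609, 2437, 1007 and 130 reads, or 1144, 848, 635, 357 and 49.0 CPM. It thus fell while the simple-epithelial keratins rose, with a slope of -3.62 ± 0.59 (edgeR quasi-likelihood adjusted p = 3.0e-04), and of -2.17 without 0:100. NES, the progenitor filament nestin, fell with a slope of -2.41 (-1.57 without 0:100) and SYNM, the linker filament synemin, with a slope of -1.96. The nuclear lamin LMNB1 had a slope of 0.78 that did not pass without 100:0 (0.29), without 0:100 (1.02), under library totals (0.37) or with DESeq2's Wald test (0.82). The fourth gene that fell was the lamin LMNB2 (slope -0.48, which did not pass without 0:100 or with DESeq2), named after its value was seen.

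Genes that anchor keratin filaments were mixed. Of 14 tested plakin and desmosome genes 2 rose and 3 fell (median slope -0.079), against 45.7% of all genes that passed. EVPL, encoding envoplakin, had a slope of 1.04 and JUP, plakoglobin, one of 0.85. DSP, which ties keratin filaments to desmosomes, had a slope of -1.25, with 352 CPM in 100:0 and 148 in 0:100. DST, a plakin of hemidesmosomes, had a slope of -1.43 and the desmosomal cadherin DSG2 one of -0.65. Under library totals 2 rose and 7 fell in this list. Of 7 hemidesmosome genes 2 rose and 4 fell (median slope -0.49), against 22.3% of all genes that fell. The laminin chain LAMB3 had a slope of -0.85. COL17A1 had a slope of -0.56, and the tetraspanin CD151 one of 0.48 that did not pass under library totals (0.061). The integrin ITGA6 had a slope of -0.51 that did not pass without 100:0 (adjusted p = 0.083 by edgeR's quasi-likelihood test) or without 0:100 (adjusted p = 0.165 by the same test), nor with DESeq2 (adjusted p = 0.066). Its partner ITGB4, named after its value was seen, had a slope of -0.49 that did not pass without any 1 of 100:0 (-0.29), 75:25, 50:50 or 25:75 (-0.31), or with DESeq2's size factors or test, and was -0.95 without 0:100.

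Of 17 tested genes in a list of regulators of epithelial genes, transcription factors apart from the splicing regulator ESRP1, 7 rose and 4 fell (median slope 0.13), against 23.5% of all genes rising and 22.3% falling. ELF3, an epithelial ETS factor, went from 44.5 to 581 CPM with a slope of 3.22. SOX2 had a slope of 2.29 and OVOL2 one of 1.97 (1.28 without 100:0). SNAI2, a repressor of epithelial genes, had a slope of -1.96, ETS2 one of -1.12 (-0.72 without 0:100) and TP63, the basal-cell factor, one of -1.40, which without 0:100 was -0.77 and did not pass. The fourth gene that fell was ZEB1, a repressor of epithelial genes with 82 reads (slope -2.70, not passing without 0:100), named after its value was seen. Of 14 genes for keratin-binding and keratin-processing proteins 4 rose and 4 fell (median slope -0.20), against 45.7% of all genes that passed, and under library totals 2 rose and 8 fell. YWHAE, a 14-3-3 protein, had a slope of 0.80. SFN, another 14-3-3 protein, had a slope of -1.68 and the co-chaperone DNAJB6 one of -0.95. PRKCD had a slope of 0.61 that did not pass without 100:0 (0.44), without 25:75 (0.55), under library totals (0.20) or with DESeq2 (0.63). YWHAZ, named after its value was seen, fell with a slope of -0.90, and CASP6, named likewise, had a slope of 0.61 (1.00 without 100:0) that did not pass without 75:25, 25:75 or 0:100, under library totals or with DESeq2.

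Profiles across the 5 libraries were compared as the root mean square distance of mean-centred log2 CPM over 5289 genes with at least 500 reads. The nearest other genes were NDUFA10 (0.022) and RPL13 (0.029) for KRT8, RPS19 (0.044) and MYH14 (0.049) for KRT18, PARD3 (0.010) and PIP4P1 (0.021) for KRT7, and EEF1G (0.029) and WDR74 (0.032) for KRT19. Partners were not each other's nearest profile: KRT18 ranked 1075 for KRT8, KRT8 ranked 256 for KRT18 and KRT19 ranked 458 for KRT7. KRT80 ranked 8 for KRT18 and KRT15 ranked 15 for KRT8. In mixtures of the RNAs of both lines, such a profile follows the ratio between the unmixed RNAs, apart from measurement error. The distances and ranks therefore restate those ratios, and whether any of these genes are regulated together was not tested.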

How the data were processed

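For each library the authors deposited estimated counts of reads, 1 row per transcript with its length; minimap2 2.24, Salmon 1.9.0 and GRCh38 are named in the submitters' processing notes, and the annotation release is not given in the sources used here. Of all values 2 were not exact whole numbers and were rounded, and 161 repeated identifiers were summed. Identifiers were paired with GENCODE v44 genes (98.6% of human reads). Library size was the reads on matched genes, kept after 4 definitions had been compared because it gave the 6172 called genes of an earlier analysis of these tables; the others gave 6172 to 6175. Slopes on the HCC827 fraction were fitted with edgeR 4.0.16 on R 4.3.3 (TMM, at least 10 reads in 2 libraries, Benjamini-Hochberg threshold 0.05; biological coefficient of variation 9.11%), usage with diffSpliceDGE, and ratios with exact permutation tests over library order (scipy 1.17.1). Alternatives used DESeq2 1.42.0, limma 3.58.1 voom, other filters and scalings, and each library left out.

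The keratins and all gene lists were chosen with earlier results of these data known. Genes named from lists had at least 100 reads, passed the test and had up to 3 of the largest slopes in each direction; transcripts named held at least 5% of a gene, and KRT8-217, KRT8-212, KRT8-214, KRT8-207 and KRT7-204 were chosen after their values were seen. Some genes that the rule names are not reported here. Of 4 squamous or basal markers, SOX2 went from 17.3 CPM in 100:0 to 112 in 0:100, TP63 from 29.3 to 7.92 and DSG3 from 2.69 to 0.755, with KRT14 at 0 in both.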

Additional observations from a re-analysis of the deposited data

How the results depend on the processing

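With 1 library per ratio, depth limits KRT17, KRT81, KRT5 and KRT6A, and no comparison carries the spread between cultures. No paired analysis was possible because each ratio had a single library. All 95 tested alternative fits of the 7 called keratin slopes kept direction and call. Subtracting the median of the length bin has no test and gave 1.96 for KRT18, 1.08 for KRT7, 2.30 for KRT80, 1.34 for KRT8 and 1.38 for KRT19. KRT17 could not be tested without 100:0, without 75:25 or with 10 reads required in every library. Leaving out 1 library at a time gave 6 to 7 called keratin genes, 15 to 18 called transcripts (19 with all 5) and 0 to 1 called for usage. KRT81 reversed under library totals (-0.24), without 100:0 (-0.42) and without 0:100 (-0.015), with -0.42 to 0.52 over the libraries left out.

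Usage called 1 keratin gene with protein-coding transcripts only (KRT8) and 1 without the 4 KRT8 transcripts at the 5′ end (KRT7), where the KRT8-216 share rose by 0.32 points. With 1 library left out, the fitted change was 10376 to 11480 summed CPM, 4.38 to 10.2 points for type I, 6.50 to 14.98 for KRT18, 1.70 to 6.74 for KRT19, 2.11 to 2.22 for KRT8-216 and -0.230 to -0.073 for the basal and stress keratins. Without 100:0, 50:50 or 0:100 the smallest exact permutation p is 0.0833, and without 75:25 or 25:75 it is 0.0417. Without 25:75 the type I and KRT18 shares gave an exact permutation p of 0.125. Both shares stayed in order there, but the remaining libraries are unevenly spaced in mass, so that p does not show a lost trend.

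Under library totals the folds were 2.03 for KRT8, 3.45 for KRT18, 1.71 for KRT7, 2.35 for KRT19, 3.28 for KRT80 and 2.07 for KRT15; the KRT17 ratio was 0.841 with a floor of 10 reads in place of 3. Positions became 43.4% for KRT8 in 50:50; 27.9%, 46.8% and 80.7% for KRT18; 41.9% (50:50) and 99.1% (25:75) for KRT7; and 30.6%, 44.3% and 70.6% for KRT19. Called genes became 9 for plakins and desmosomes under library totals, 0 for other keratins with 10 reads in every library, and with DESeq2 1 for other keratins, 3 for other filaments and 5 for keratin-binding proteins. With 1 library left out, lists gave 1 to 2 (other keratins), 4 to 5 (other filaments), 5 to 6 (plakins), 4 to 5 (hemidesmosome), 9 to 11 (regulators) and 6 to 8 (binding proteins). Of 401 alternative fits of the 37 called list genes, 366 kept direction and call and 35 lost the call. The cause of these changes was not tested.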
